A study of Drosophila melanogaster with 44 samples.

Results

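The fourth chromosome of Drosophila melanogaster is the small "dot" chromosome, and its genes were followed here in adult females that were wild type or lacked 1 copy of a segment on chromosome 2 or 3. All genes on the array that Release 6 of the genome places on chromosome 4 were taken, and the probe set of highest mean stood for each gene. Of 65 such genes, Syt7, Zip102B and ATPsynbeta were set aside by name, since the choice left out Syt7, Zip102B and symbols beginning with ND-, RpS or ATPsyn. This left 62 genes of 11884 on the array, and of 80 protein-coding genes that RefSeq lists for the chromosome. They ran from PlexB, a semaphorin receptor of the plexin family, at one end to Cadps, which acts in the release of dense-core vesicles, at the other. The mean log2 value over all arrays was at least 6 for 48 of the 62, and these were tested, among 7476 genes in all.

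Chromosome 4 is largely packed as heterochromatin, is bound by Heterochromatin Protein 1, and still carries active genes. Its genes are also bound by Pof, a protein that coats this chromosome and raises the output of its genes. Flies survive with a single copy of it, and for that reason the chromosome is a textbook case of a chromosome-wide adjustment of expression to gene dose.

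Each of the 44 samples was a pool of 15 adult females aged 0 to 24 h, kept at 25 °C, with total RNA on 1 Affymetrix array. Wild type had 6 arrays. Flies heterozygous for 1 deletion had 19: Df(2L)ED4559, Df(2L)ED3, Df(2R)ED1612, Df(2R)ED1770 and Df(3R)ED10953 with 3 arrays each, and Df(3R)ED5071 and Df(3R)ED7665 with 2 each. The remaining 19 arrays were pairwise combinations of these deletions, called doubles, with 1 array per genotype and therefore no replicate within a genotype. Where both deletions of a double affect the same chromosome arm, as in Df(3R)ED5071/Df(3R)ED10953, the labels place them on opposite homologs. Where 1 lies on 2L and 1 on 2R, the labels write each over a + and do not state the homologs. None of the deletions lies on chromosome 4, so the 62 genes had 2 copies in every group. The title of the series asks about buffering of genes that are left in 1 copy; for chromosome 4 the design allows the question of whether its genes, at 2 copies, moved when a segment elsewhere was lost.

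The median log2 value of an array was 5.50 to 5.73, and the number of arrays limits the precision. The yolk protein gene Yp1 stood between 13.34 and 14.18 in all 44 arrays, and the 6 testis genes examined stayed between 2.88 and 5.12. Wild-type replicates 4 and 5 stood apart: relative to the wild-type mean, 12 eggshell and follicle genes averaged 3.68 and 3.07 in them and 14 germline genes 1.16 and 0.94. Array numbers in the labels ran from 1 to 6 in wild type and upward from 7 in all deletion arrays, so array order and deletion cannot be told apart in a comparison with wild type. ED5071 and ED7665 were present only on arrays numbered from 27. In whole flies, fewer cells of a type and less RNA per cell cannot be told apart.

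Against wild type, no chromosome 4 gene passed the test in the single deletions, although most lay higher. The fitted difference, the mean of the 7 deletions minus wild type, was above 0 for 32 of the 48 tested genes (66.7%). Of all tested genes outside the deleted intervals 49.3% were above 0, which is also the background for the gene lists below. Its median was 0.20 on the log2 scale, beside -0.0028 over all 7184 tested genes outside the deleted intervals. With limma and Benjamini-Hochberg adjustment over all tested genes, 0 of 48 were called at 0.05, against a background of 1.28% (92 genes). At an unadjusted p under 0.05 there were 19, all higher, beside 12.4% of all tested genes that were higher and 21.1% in either direction.

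CG32017, a gene without a name, had the largest positive estimate. Its log2 value was 6.54 at the lowest, 7.67 at the median and 8.08 at the highest in 6 wild-type arrays, and 7.66, 8.16 and 8.79 in 19 single-deletion arrays. All 19 lay above the wild-type mean and 11 above every wild-type array, so the groups overlapped. The difference was 0.65 ± 0.18 (SE), or 1.57-fold, with adjusted p = 0.0686. Next came onecut, a homeodomain transcription factor of neurons, at 5.11, 6.14 and 6.46 in wild type and 6.19, 6.56 and 7.09 in singles. Here 13 of 19 single-deletion arrays exceeded every wild-type array, and the difference of 0.60 ± 0.16 (SE) had adjusted p = 0.0603.

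Among genes of muscle and cytoskeleton, bent (bt), which encodes the giant muscle protein projectin, stood at 10.96, 12.28 and 12.46 in wild type (lowest, median, highest) and at 11.77, 12.60 and 13.07 in singles. The lowest wild-type value, 10.96, came from replicate 4, and the groups overlapped widely. The difference was 0.52 ± 0.21 (SE), adjusted p = 0.165, and it was 0.31 without replicate 4 and 0.19 without replicates 4 and 5. Ank, which encodes an ankyrin that links membrane proteins to the cytoskeleton, differed by 0.37 (adjusted p = 0.115), and Zyx, which encodes zyxin of focal adhesions, by 0.24 (adjusted p = 0.189). All 3 tested genes of this list were above 0, with a median of 0.37 and 0 called.

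The genes of synapse and of ion and transmitter transport were likewise all above 0, 7 of 7, with a median of 0.35 and 0 called. PMCA, the calcium pump of the plasma membrane, differed by 0.45 ± 0.17 (SE), and its 3 probe sets did not share a sign, the dimmest being at -0.00029. Cadps differed by 0.42 ± 0.13 (SE) on the probe set used and by -0.24 on its dimmer one. Without wild-type replicates 4 and 5 PMCA stood at 0.17 and Cadps at 0.18, and without replicate 4 alone at 0.27 and 0.28. Ekar, a kainate-type glutamate receptor, stood at 5.36 to 6.06 in wild type and 5.79 to 6.56 in singles, with all 19 singles above the wild-type mean and a difference of 0.38 (adjusted p = 0.0857). The GABA transporter gene Gat differed by 0.35 ± 0.24 (SE), by 0.09 without wild-type replicate 4 and by -0.14 without replicates 4 and 5. The unc-13 gene, needed to prime synaptic vesicles for fusion, differed by 0.27, and dpr7, of the immunoglobulin superfamily, by 0.19, the smallest of the list.

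In growth factor, guidance and kinase signalling, 7 of 9 tested genes were above 0, with a median of 0.22 and 0 called. Actbeta, an activin ligand, ranged from 5.40 to 6.23 in wild type and from 5.94 to 7.24 in singles, and 13 of 19 singles exceeded every wild-type array. Its difference was 0.51 ± 0.17 (SE), adjusted p = 0.107. Asator, a kinase of the tau tubulin kinase family, differed by 0.31, Slip1 by 0.30 and PlexB by 0.24. The ligand gene Ephrin lay on the other side at -0.13, and its receptor gene Eph at -0.0081.

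Of the transcription and chromatin genes 3 of 8 tested were above 0, with a median of -0.07 and 0 called. Apart from onecut, the hedgehog effector ci stood at 0.25, Pur-alpha, a nucleic-acid-binding protein, at -0.16, MED26, a subunit of the Mediator complex, at -0.11 and Sox102F, an HMG-box factor, at -0.04. Genes of RNA, translation and protein turnover were split, 2 of 4 above 0, with a median of 0.10 and 0 called; the translation initiation factor eIF4G1 stood at 0.21, gawky (gw), the GW182 protein of microRNA silencing, at 0.20, the ubiquitin receptor gene Rad23 at -0.09 and Gyf, a GYF-domain regulator of translation, at -0.0086. The list set up for lipid and metabolism had 2 tested genes, both above 0, with a median of 0.27 and 0 called. They were apolpp, the precursor of the main blood lipoprotein, at 0.35, and yellow-h, whose function was not examined, at 0.18.

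Of the 15 tested genes in none of these lists, 8 were above 0, with a median of 0.11 and 0 called. They included CG32017, the RING-finger gene Rnf11 (0.56, and 0.85 on its other probe set) and CG1909 (0.41). Without wild-type replicates 4 and 5 these 3 stood at 0.35, 0.20 and 0.10, and without replicate 4 alone at 0.45, 0.33 and 0.25. The most negative estimates on the chromosome were CG31998 at -0.17, Pur-alpha at -0.16 and CG33941 at -0.14; CG31998 stood at -0.07 without wild-type replicate 4 and at -0.27 without replicate 6, and Pur-alpha at -0.07 without replicate 3.

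**Figure D1:**
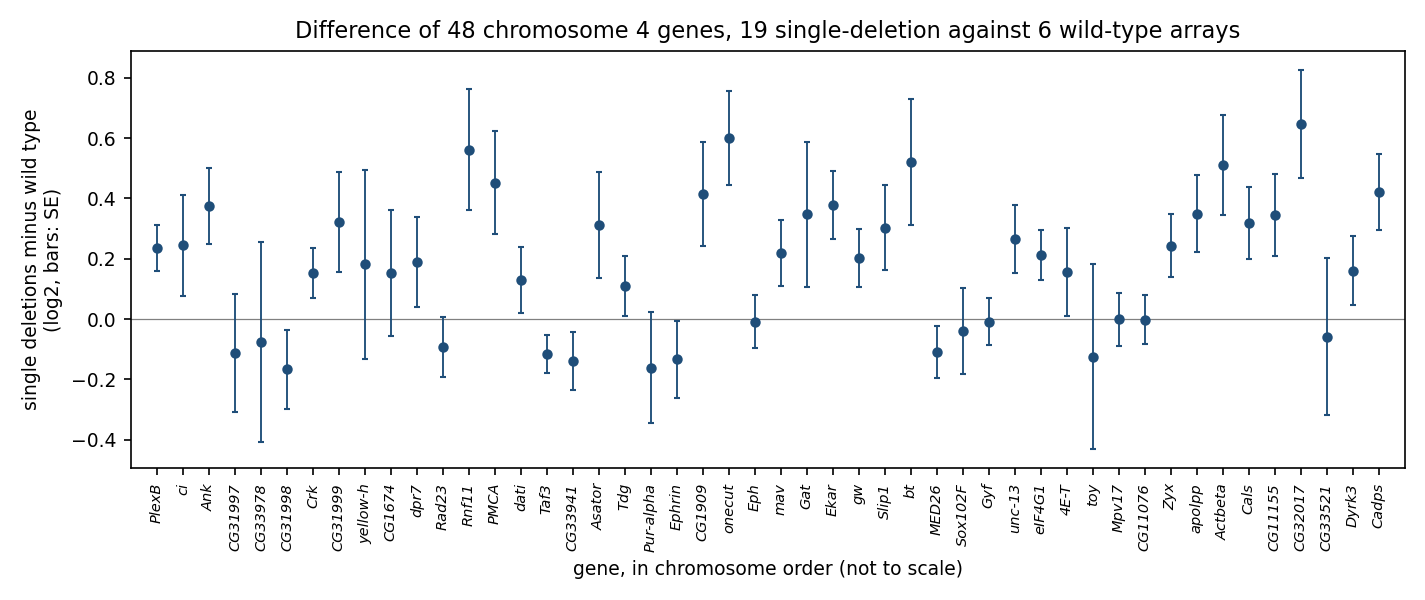
Fitted log2 difference of 48 chromosome 4 genes, single deletions (19 arrays) minus wild type (6 arrays), with bars of 1 SE; genes are in chromosome order, not to scale. 32 of the 48 points lie above 0, beside 49.3% of all tested genes, and the points run from CG32017 at 0.65 down to CG31998 at -0.17.

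The median difference of long genes was above 0 on every arm, and 40 of the 48 tested chromosome 4 genes are long. The median span was 10440 bp for the 48 tested genes and 2705 bp for all 7184. Over the 40 chromosome 4 genes that span at least 5000 bp the median difference was 0.24, beside 0.10 over all 2168 tested genes of that span. Above 0 were 72.5% of these 40 and 70.1% of the 2168, so the shares were close. On X, 2L, 2R, 3L and 3R the medians of such long genes were 0.05, 0.11, 0.12, 0.13 and 0.09, and the medians of all tested genes lay between -0.02 and 0.0085. Across genes, which are not independent replicates, Spearman's rho between span and difference was 0.31 over the 48 chromosome 4 genes and 0.36 over 7133 genes of the other arms. The part of gene span in the chromosome 4 values was not tested.

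**Figure D2:**
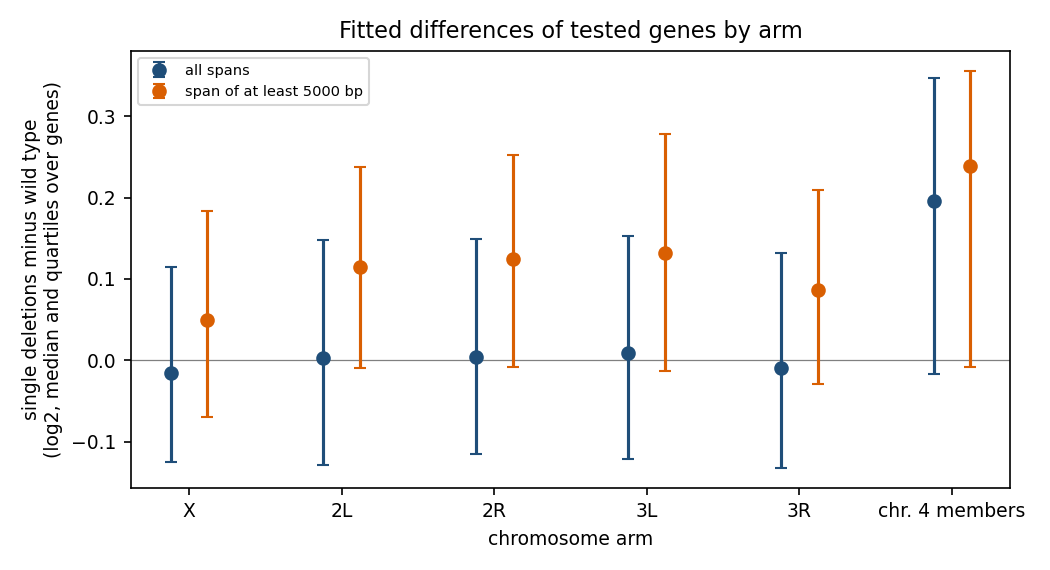
Fitted log2 difference, single deletions minus wild type, by chromosome arm: points are medians over tested genes and bars run from the lower to the upper quartile, for all spans (blue) and for spans of at least 5000 bp (orange). The chromosome 4 medians are 0.20 and 0.24, and those of the long genes on the other arms are 0.05 to 0.13.

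Array by array, the median over the 48 genes, relative to the wild-type mean, was 0.25, 0.03, 0.23, -0.44, -0.20 and 0.10 in wild-type replicates 1 to 6. In the 19 singles it ran from -0.03 to 0.39 with a median of 0.25, and in the 19 doubles from -0.21 to 0.52 with a median of 0.21. The lowest double, ED4559 with ED1770, was low over the whole array: its medians over the 5 other arms lay between -0.22 and -0.21, and its testis list at 0.82. The lowest of the other 18 doubles stood at -0.02. The 2 low wild-type arrays, replicates 4 and 5, were those high in eggshell genes; in them the list of 6 muscle genes lay at -0.61 and -0.16 and that of 9 neuron genes at -0.76 and -0.30, against 0.11 to 0.26 and 0.25 to 0.28 in the other wild-type arrays. In singles the muscle list lay between 0.05 and 0.33, the neuron list between -0.32 and 0.49, the germline list between -0.78 and 0.85 and the eggshell list between -2.97 and 2.08. A fit with the germline list as a covariate is given in the next paragraph. The part of the other tissues in the chromosome 4 values was not tested.

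Without replicates 4 and 5 the median difference of the 48 genes was 0.09 and that of all tested genes 0.02. One gene, apolpp, was then called (0.61, adjusted p = 0.00955), beside a background of 2.17%. Its value in those arrays, 13.31 and 13.51, had been the highest in wild type, and the other 4 wild-type arrays lay between 12.52 and 12.85. At an unadjusted p under 0.05 there were 8 genes without replicates 4 and 5, of which 6 were higher. Over all wild-type arrays there were 19, all higher, and without replicate 4 alone 8, all higher. The share of all tested genes at that p was not computed with these arrays left out. With the germline list as a covariate 17 of the 48 were called, all higher, beside a background of 22.4%; among them were CG32017 at 0.69 (adjusted p = 0.0153), onecut at 0.65 (adjusted p = 0.00987) and Cadps at 0.47 (adjusted p = 0.00987). bt, at 0.55, was not (adjusted p = 0.0623).

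**Figure D3:**
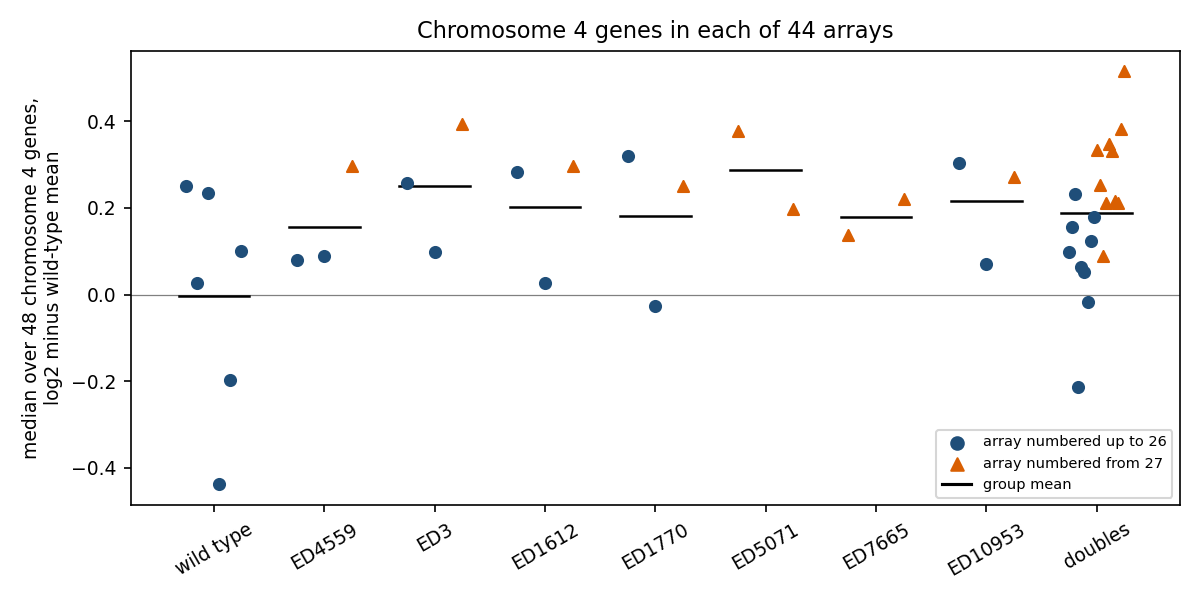
Median over 48 chromosome 4 genes of the log2 value minus the wild-type mean, 1 point per array, by genotype; blue circles are arrays numbered up to 26, orange triangles those numbered from 27, and lines are group means. Wild type spans -0.44 to 0.25, the singles -0.03 to 0.39 and the doubles -0.21 to 0.52; in the lowest double, ED4559 with ED1770, the 5 other arms stand at -0.22 to -0.21 too.

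Single deletions taken one at a time share the 6 wild-type arrays, and none had a called chromosome 4 gene. The median over the 48 genes was 0.26 in ED5071, 0.25 in ED3, 0.20 in ED7665, 0.19 in ED10953, 0.19 in ED1612, 0.14 in ED4559 and 0.14 in ED1770. The background of called genes was 0.364% for ED5071, 0.0134% for ED3, 0.0269% for ED7665, 0.121% for ED10953, 0.0135% for ED1612, 0.0538% for ED4559 and 0.0539% for ED1770. At an unadjusted p under 0.05 there were 11, 7, 6, 7, 9, 5 and 2 members in that order, beside 16.2%, 7.94%, 10%, 6.16%, 11.1%, 9.21% and 6.42% of tested genes. In limma's F test among the 7 single deletions 0 of 48 were called (background 0.0974%) and 2 had an unadjusted p under 0.05, Sox102F with F = 3.38 and Gyf with F = 3.25, beside 4.11% of all genes.

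A second deletion went with no called change in limma: 0 of 48 genes, and 0 of 7184 (0%), differed between the doubles and the singles, the latter weighted by the number of doubles that carry each deletion. The median difference of the 48 was -0.02, that of all genes -0.02, and single values ran from -0.33 to 0.32. Sox102F at -0.33 and Rnf11 at -0.33 were the 2 genes with an unadjusted p under 0.05, beside 3.58% of all genes.

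With the doubles used as further carriers in an additive fit of 7 deletion terms over 44 arrays, 5 of 48 chromosome 4 genes differed between the 8 carriers of ED10953 and the 36 other arrays, beside a background of 4.98%. MED26, Sox102F, CG31998 and Slip1 were lower (4 of 48, background 1.66%) and Gyf was higher (1 of 48, background 3.31%). Along the chromosome MED26, Sox102F, fd102C and Gyf follow one another among the 62 genes; fd102C, a forkhead gene, was too low to be tested, at 3.62 to 4.16 in all arrays. Each of the 5 has a single probe set.

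MED26 stood at 10.32, 10.16 and 10.53 in the 3 single ED10953 arrays and at 10.01, 10.07, 10.08, 10.07 and 10.06 in the doubles of ED10953 with ED4559, ED1612, ED3, ED5071 and ED7665. The 36 non-carriers ranged from 10.25 to 10.97 with a median of 10.50, and the 14 doubles without ED10953 from 10.36 to 10.83. The 5 ED10953 doubles thus lay below all other doubles, while 2 of the 3 single carriers overlapped the non-carriers. The additive term was -0.41 ± 0.07 (SE), 0.755-fold, adjusted p = 0.000132. The eggshell list lay between -2.94 and -2.18 in those 5 doubles and between -1.75 and 2.83 in the other doubles, and the germline list between -0.73 and 0.35 against -0.28 and 0.87. The list of 6 hemocyte genes, markers of blood cells, lay between 0.44 and 0.98 in the 8 carriers, and 7 of them exceeded every non-carrier, at -1.0 to 0.48. With the germline list as a covariate in limma the ED10953 term was -0.33 for MED26, -0.77 for Sox102F and -0.38 for CG31998. It was -0.29 for Slip1 (adjusted p = 0.0477) and 0.37 for Gyf. All 5 stayed called, among 6 of 48 beside a background of 15%. The part of the eggshell and hemocyte lists in the values of the 5 genes was not tested.

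Sox102F stood at 6.80, 6.25 and 6.45 in the single ED10953 arrays and at 6.40, 6.90, 6.07, 6.05 and 5.76 in the doubles named in the same order. Non-carriers ranged from 5.90 to 7.63 with a median of 6.97, 1 carrier lay below every non-carrier, and the highest carriers, at 6.80 and 6.90, lay close to that median. The term was -0.68 ± 0.12 (SE), 0.623-fold, adjusted p = 0.000156.

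Gyf was the gene that rose, at 11.88, 12.05 and 11.82 in single ED10953 arrays and 11.90, 11.83, 11.71, 11.67 and 11.69 in the doubles. Among non-carriers the median was 11.46 and the range 11.20 to 12.03, the top value being wild-type replicate 4. The term was 0.31 ± 0.06 (SE), 1.24-fold, adjusted p = 0.000871.

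CG31998 ranged from 6.69 to 7.93 in carriers (median 7.21) and from 7.17 to 8.31 in non-carriers (median 7.70), with a term of -0.47 ± 0.10 (SE) and adjusted p = 0.00282. Slip1, at 8.003 to 8.95 in carriers and 8.41 to 9.58 in non-carriers, had a term of -0.35 ± 0.11 (SE) and adjusted p = 0.0419; that call was lost in 10 of 30 fits that each left out 1 array, with adjusted p up to 0.135. For none of the 48 genes did all carriers of ED10953 lie outside the range of all non-carriers, which held for 0.0939% of tested genes.

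With array number (up to 26, from 27) as a block, all 5 stayed called, with adjusted p = 0.000182 for Slip1, and toy, unc-13 and dpr7 joined them (0.51, 0.30 and 0.34), which made 8 of 48 beside a background of 7.58%. In arrays numbered up to 26 alone Gyf (0.39) and MED26 (-0.41) were called, beside a background of 2.39%; in those from 27 alone it was Sox102F (-0.82), beside 0.483%, and MED26 stood at -0.42 with adjusted p = 0.231. All 5 kept their sign in both sets. An F test among the 7 deletion terms, with the same block, called 6 of 48 genes beside a background of 9.47%, namely these without CG31998 and, in addition, toy and Eph.

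**Figure D4:**
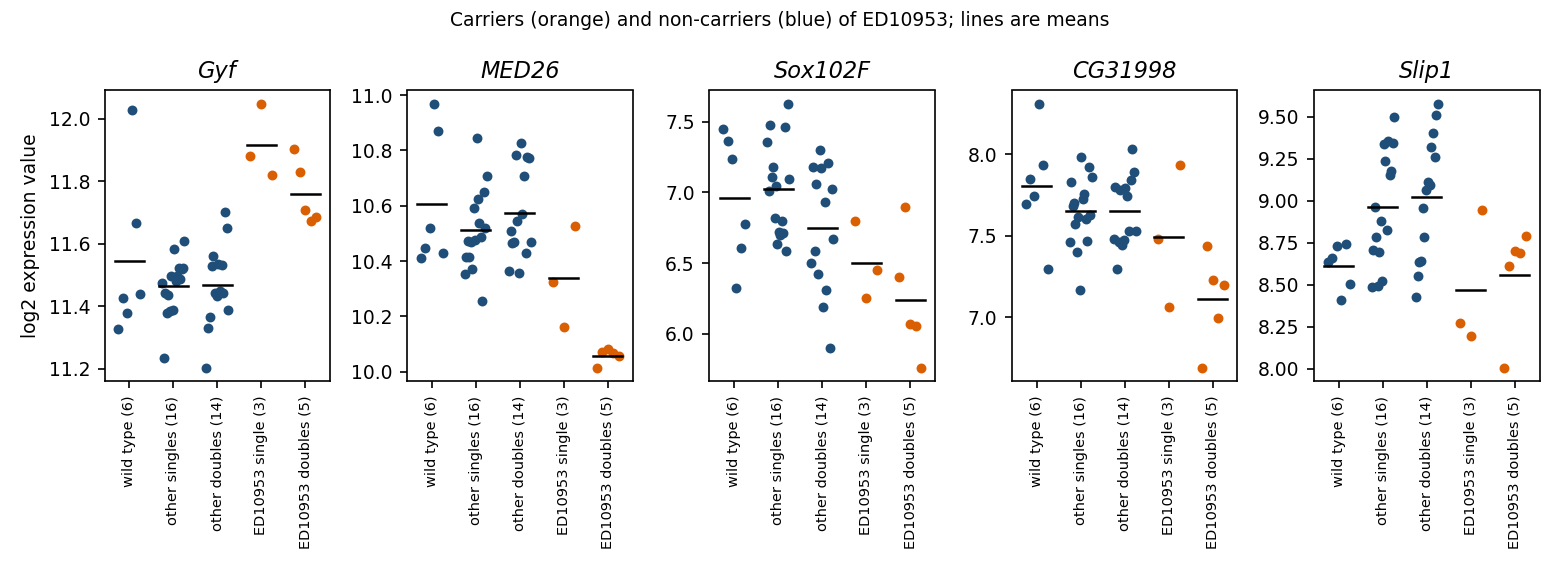
Log2 value of the 5 chromosome 4 genes called for ED10953 in the additive fit, 1 point per array, with carriers in orange, non-carriers in blue and lines at group means; each panel has its own scale. For MED26 the 5 ED10953 doubles lie at 10.01 to 10.08, below the other doubles at 10.36 to 10.83.

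The same fit called 11 of 48 genes for ED5071 (background 12%) and 17 of 48 for ED7665 (background 18.9%), and every array with either deletion was numbered from 27. The largest terms were Actbeta at 0.54 and CG32017 at 0.50 among 10 rises for ED5071 (background 5.43%), with Sox102F at -0.35 the 1 fall (background 6.6%). For ED7665 they were CG32017 at 0.68 and Actbeta at 0.64 among 14 rises (background 8.82%), with 3 falls (background 10%), CG33978 (-0.64), CG31997 (-0.42) and Sox102F (-0.38). In fits that each left out 1 array the call of Sox102F for ED5071 was lost in 17 of 30 (adjusted p up to 0.0821) and that of CG33978 for ED7665 in 14 of 30 (adjusted p up to 0.102). For ED7665, limma with the germline covariate gave CG33978 -0.21 (adjusted p = 0.244) and CG31997 -0.17 (adjusted p = 0.127), so neither stayed called. CG32017 and Actbeta stayed called there, at 0.78 and 0.67. For ED5071 the call of Sox102F was lost with that covariate (-0.28, adjusted p = 0.0668). With the array-number block the terms of ED5071 and ED7665 are set against the arrays from 27 that carry neither deletion. It left 1 gene called for ED5071, toy at 0.76 (background 2.24%), and 0 for ED7665 (background 0.269%). The sign of toy turned with the block, from -0.23 in ED5071 and from -0.42 to 0.57 in ED7665. CG33978 stood at 0.08 and CG31997 at -0.07 in ED7665 with the block, and Actbeta at 0.04 in ED5071 and 0.13 in ED7665. Sox102F stood lower, at -0.50 in ED5071 (adjusted p = 0.0941) and -0.53 in ED7665 (adjusted p = 0.335), and in arrays from 27 alone it was called for ED5071 (-0.51, adjusted p = 0.0191). For ED3, ED1612, ED1770 and ED4559 no member was called without the block (backgrounds 0.429%, 0.283%, 0.283% and 0.82%). With it, ED3 had toy at 0.66 and CG11155 at 0.34 (background 1.13%), ED1770 had Sox102F at -0.45 (background 0.796%), ED4559 had Taf3, a subunit of the TFIID complex, at -0.19 (background 1.6%), and ED1612 had none (background 0.485%).

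Array number itself went with large differences in chromosome 4 genes. In the additive fit with the array-number block, the array-number term (from 27 minus up to 26) was called for 27 of 48 genes, beside a background of 41.4%. It was positive for 21 (background 24.4%) and negative for 6 (background 17%). ED5071 and ED7665 occur only from 27. The term therefore rests on the other arrays from 27, set against the 25 arrays up to 26. Those others are replicate 3 of ED4559, ED3, ED1612, ED1770 and ED10953. Slip1 stood at 8.003 to 8.96 in the 25 lower-numbered arrays and at 8.69 to 9.58 in all 19 from 27. Its term was 0.63 ± 0.07 (SE) with adjusted p = 1.99e-08. 4E-T, which encodes a partner of the cap-binding protein eIF4E, had a term of 0.61, Ank of 0.55, gw of 0.42 and bt of 0.72. For bt the plain means were 12.18 up to 26 and 12.74 from 27. The ranges of Ank barely met, 8.75 to 9.48 against 9.46 to 9.92.

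The eye-development gene toy, a Pax6 homologue, ran the other way, from 6.17 to 8.49 in arrays up to 26 and from 5.82 to 7.62 in arrays from 27. Plain means were 7.34 and 6.53, and the array-number term was -1.21 ± 0.17 (SE) with adjusted p = 1.05e-06. Its highest value, 8.49, was the double of ED3 with ED10953, and a wild-type array, replicate 4, held the lowest of the 25. The array-number terms of Pur-alpha and CG33978 were -0.60 and -0.88. The germline list was higher in the later arrays, at 0.61 ± 0.20 (SD, n = 9) in singles from 27 against -0.28 ± 0.34 (SD, n = 10) in singles up to 26, and its part in these differences was not tested.

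**Figure D5:**
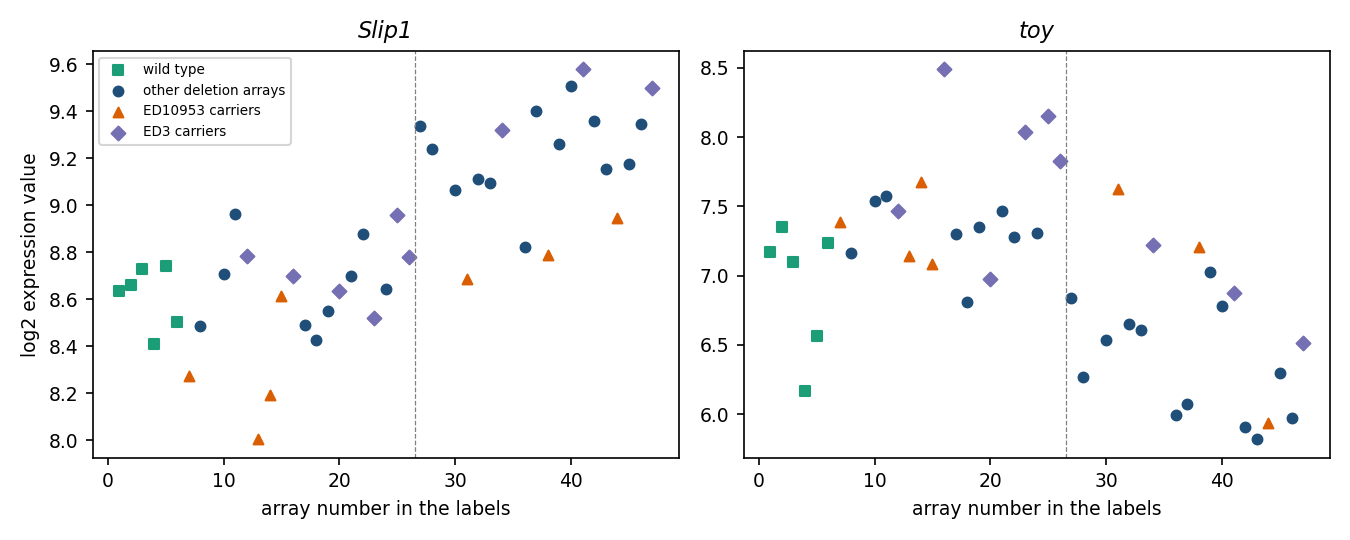
Log2 value of Slip1 and toy against the array number in the labels, 1 point per array, with wild type as green squares, carriers of ED10953 as orange triangles, carriers of ED3 as purple diamonds and other deletion arrays as blue circles; the dashed line separates numbers up to 26 from those of 27 and more. Slip1 lies at 8.69 to 9.58 right of the line, and toy at 5.82 to 7.62.

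Across the 44 arrays single genes followed the germline list in opposite directions. Of 48 relations computed, the lowest Pearson's r were those of CG31997 (-0.87), CG33978 (-0.86) and CG33521 (-0.74), and the highest those of 4E-T (0.72), Ephrin (0.71) and MED26 (0.67). Spearman's rho was -0.88, -0.86, -0.71, 0.66, 0.68 and 0.72 in that order. The unadjusted p was 1e-05 for each r and rho in a two-sided permutation test, the smallest that 100000 permutations can give. Without the 2 arrays farthest from the median of the germline list r was -0.87, -0.85, -0.73, 0.77, 0.66 and 0.61. Within arrays up to 26 it was -0.86, -0.83, -0.79, 0.44, 0.68 and 0.67, and within arrays from 27 it was -0.73, -0.76, -0.43, 0.79, 0.64 and 0.70. For other genes r over all arrays differed from that within the sets. For bt it was -0.02 over all arrays, -0.81 up to 26 and -0.27 from 27. In that order CG32017 had -0.02, -0.71 and -0.42, and Ank 0.28, -0.60 and -0.19. By contrast apolpp kept its sign, at 0.58, 0.63 and 0.36. The arrays share these genotype groups, so they are not 44 draws from one condition.

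Regulators of the chromosome were also measured, and 0 of 5 tested were called in the singles. Pof ranged from 6.92 to 8.44 in wild type and from 6.85 to 7.74 in singles, with a difference of -0.18 ± 0.18 (SE) and adjusted p = 0.590. The gene of Heterochromatin Protein 1a differed by -0.11 (adjusted p = 0.640) and wde, a partner of a histone methyltransferase, by 0.08 (adjusted p = 0.769). The related HP1b and HP1c differed by -0.16 and -0.19 (adjusted p = 0.418 and 0.216). Su(var)3-7, another heterochromatin protein, was too low to be tested, at 5.14 to 5.85 in wild type.

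The 14 untested genes had means from 3.62 to 5.90 and included several developmental regulators. The Pax6 gene ey lay at 5.21 to 5.64 in wild type, 5.11 to 5.69 in singles and 5.02 to 5.74 in doubles. The Pax gene sv lay at 3.37 to 3.64, 3.40 to 3.83 and 3.23 to 3.83, and the homeodomain gene zfh2 at 3.47 to 4.62, 3.55 to 4.71 and 3.63 to 4.70. The metabotropic glutamate receptor gene mGluR lay at 3.43 to 4.34 in wild type, 3.58 to 4.18 in singles and 3.68 to 4.05 in doubles, and Mitf, a transcription factor of lysosome genes, at 5.43 to 6.09, 5.78 to 6.31 and 5.42 to 6.30. In all of these the groups overlapped. The others were RhoGAP102A, fuss, myo, NfI, CG11360, CG32006, Hcf, fd102C and Kif3C.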

How the data were processed

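Per the submitters' processing notes the authors used RMA, which yields 1 value per probe set; the deposited values are on the log2 scale. The RMA version was not given in the sources used here, nor were a genome build and an annotation. The log base is not stated and was taken from the range of values, 2.58 to 14.66. Of 18952 probe sets, 13647 had 1 gene symbol, 402 several and 4903 none; 13534 were matched to Release 6, which served for names, gene order and span only.

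Testing was limited to genes whose mean log2 value reached 6 and used limma 3.58.1 (R 4.3.3, empirical Bayes with a trend) and Benjamini-Hochberg adjustment at 0.05. The adjustment ran over all tested genes outside the 7 deleted intervals. For each deletion against wild type and each additive term only the interval of that deletion was left out. Intervals were found as runs of lower neighbouring genes in carriers. Tables used Python 3.11.15, and the fits were tested on simulated data. The labels gave the genotypes and describe replicates as biological, and the file held 0 columns of other samples. P-values measure the spread between arrays.

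The members, role lists, marker lists and comparisons were chosen with earlier results of these data known. Named genes followed a rule: up to 12 largest rises and 12 falls in singles against wild type, the 2 largest that passed per deletion in each direction, the 6 largest F, up to 6 of each role list, the 3 highest and 3 lowest correlations with germline genes, the regulators of the chromosome and its end genes. Further ED10953 calls, further germline correlations, the array-number and array-block genes and the untested genes were named with their values in view. Of the regulators listed, egg, Su(var)3-9 and G9a were not analysed here. Alternatives covered probe sets, filters, moderation, scaling, wild-type arrays 4 and 5, array number, a germline covariate, a replicate block and each array left out.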

Additional observations from a re-analysis of the deposited data

Results flagged for a closer look

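In wild type, 3 of the 48 tested chromosome 4 genes had 1 array far from the other 5, and it was replicate 4 each time. Taf3 stood at 10.32 there against 9.90 to 10.06 in the others, Eph at 8.49 against 8.0 to 8.15, and Cals, which encodes calsyntenin, at 9.49 against 10.29 to 10.62. Chance alone marks about 1 in 20 groups, and genes of 1 array are not independent. Replicate 4 was also the array with the highest eggshell list, 3.68 above the wild-type mean.

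A moderated F test among the 7 deletion terms, with array number as a block, was added after seeing the data. It called 6 of 48 chromosome 4 genes, beside a background of 9.47%: Slip1 (F = 12.77), Sox102F (F = 11.13), Gyf (F = 6.62), MED26 (F = 6.33), toy (F = 4.92) and Eph (F = 4.44). The limma adjusted p ran from 1.38e-05 for Slip1 to 0.0255 for Eph. For Eph no single deletion term passed on its own; those of ED4559 and ED10953 were -0.21 and -0.20.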

How the results depend on the processing

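The median difference of the 48 genes kept its sign in every setting run, from 0.06 under the replicate block to 0.25 in arrays left out one at a time (0.12 to 0.25). Leaving out wild-type replicates 4 and 5 gave 1 called member in singles against wild type (2.17% of all tests) and 1 summed over the 7 deletions (0.288%), both against 0. It gave 44 over the additive terms (9.49%), against 33 (5.38%). The germline covariate gave 17 in singles (22.4% of all tests called), 3 over the deletions (1.53%), 1 in the F test (2.07%; 0 otherwise) and 51 over the additive terms (9.15%; 33 and 5.38% otherwise). The array-number block gave 13 over the additive terms (2.02%) and 8 for ED10953 (against 5); arrays up to 26 alone gave 2 (0.618%) and 2, and arrays from 27 alone gave 1 for ED10953. With 1 array left out, counts ran from 0 to 1 in singles and over the deletions, stayed at 0 in the F test and in doubles against singles, and ran from 27 to 40 over the additive terms and from 4 to 8 for ED10953, with 8 without its replicate 3. In singles the 1 call came without wild-type replicate 3, 5 or 6 or without ED5071 replicate 2, beside 62, 108, 56 and 103 of 7184 genes called. For the other counts with 1 array left out the shares of all tests are not given here.

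Replicate numbers were not taken to pair the arrays, since not every same-numbered pair had a correlation of deviations over 0.1. In 71 such pairs it ran from -0.73 to 0.85 with a median of 0.23, and 44 exceeded 0.1; in 197 pairs of different numbers the median was -0.09 and 67 did. The 10 pairs of deletion arrays with the number 3 ran from 0.55 to 0.84. A fit with the replicate number as a block called 10 members in singles (19.7% of all tests), 43 over the deletions (10.2%) and 5 in the F test (2.56%); the doubles have 1 array each and could not be fitted with it.

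Signs turned in singles against wild type for Gat (-0.14) and Ephrin (0.0897) without wild-type replicates 4 and 5, for Gat (-0.21) and Ephrin (0.0426) under the replicate block, for Ephrin (0.0032) without replicate 4 alone (-0.22 to 0.0032 with any 1 array left out), for Pur-alpha (0.22) and CG33941 (0.0455) under the array-number block, and for Pur-alpha (0.22) and CG33941 (0.0120) in arrays up to 26. In ED7665 CG33978 turned to 0.0842 under that block and to 0.14 in arrays from 27. The array-number block also turned toy, from -0.23 to 0.76 in ED5071 and from -0.42 to 0.57 in ED7665. The cause was not tested. The analyses of the ED10953 term alone, the F test of additive terms and the arrays from 27 were added after seeing the data.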
